A study of Daphnia magna with 36 samples.

Results

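Whole adult Daphnia magna, a freshwater crustacean that filters particles from the water, were exposed for 24 h at the LC25 either to zinc sulphate (ZnSO4, 0.91 mg/L), a salt that releases zinc ions, or to silica nanoparticles (SiO2 NP, 5.1 mg/L, written SiO in the labels). The comparison holds the 12 arrays of those groups out of 36 in the series, chosen by their titles, 6 from ZnSO4 and 6 from SiO2 NP. Arrays with the same exposure number were averaged, which gave 5 ZnSO4 exposures (1 dye-swapped pair, 3 single arrays with exposed RNA in Cy5 and 1 in Cy3) and 4 SiO2 NP exposures (2 pairs and 2 single arrays in Cy5). Every RNA sample was a pool of 16 females, 10 days old, kept at 25 °C, and every array carried RNA of exposed animals in one dye and of unexposed laboratory controls in the second dye. The LC25 is a concentration set by the percentage of animals it kills, so the agents were matched by nominal toxicity and not in mg/L. The other groups of the series were zinc oxide nanoparticles (ZnO NP) at 9.0 mg/L (LC25) and, at 1/10 of the LC50, ZnSO4 at 0.13 mg/L, SiO2 NP at 1.4 mg/L and ZnO NP at 2.2 mg/L. The last of these entered only the dye effect and the spread that the fit shares over groups, and the choice of probes to test. The grade and size of the silica, whether the mg/L of the salt refer to the salt or to zinc, and whether exposures shared control RNA are not given in the sources read here.

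Zinc is an essential metal that animals take up through dedicated transporters and bind with metallothioneins. Dissolved zinc in excess hinders calcium uptake in freshwater crustaceans. Silica is poorly soluble and supplies no metal ion of this kind, so a silica particle exposes a filter feeder to a particle without dissolved zinc. The array probes carry positions as identifiers, such as A4F7, and the file does not pair them with genes. Of 7680 probe identifiers, 0 occurred in the gene table for the organism. Statements on metallothioneins, transporters or any other gene group were therefore not made, and the identity of the tissue could not be checked against marker genes. At most 2 probes of each sign are named.

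The measured quantity was the log2 ratio between exposed and unexposed animals on one array. Which RNA is the numerator, and the base of the logarithm, are not stated in the sources used here, and base 2 was assumed. The correlations among the 12 arrays compared do not settle the direction. The 3 dye-swapped pairs among them, which hold the same exposure in both orientations, correlated across probes at r = 0.492 in ZnSO4 exposure 4. In SiO2 NP exposures 1 and 3 they correlated at -0.258 and 0.172. Among the 12 arrays, 1 of 34 pairs with the same dye orientation correlated below -0.3 across probes (r = -0.520, ZnSO4 exposure 5 with the Cy3 array of SiO2 NP exposure 3), as did 2 pairs of opposite orientation. Turning every sign exchanges positive and negative differences and leaves each test as it is. The results below keep the deposited signs, and values read instead as Cy5 over Cy3 are given where they alter a statement. On the 12 arrays 58.4% to 90.5% of probes held a value, the lowest on the Cy3 array of ZnSO4 exposure 4. Tests covered the 5495 probes that were measured in 2 or more exposures of each group in the series.

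With all 9 exposures, no probe differed between ZnSO4 and SiO2 NP at a Benjamini-Hochberg adjusted p below 0.05 in limma, 0 of 5495 (0%), and the lowest adjusted p was 0.143. An unadjusted p below 0.05 was reached by 942 probes (17.1%), of which 336 (6.11%) had a positive and 606 (11.0%) a negative difference, ZnSO4 minus SiO2 NP. The fitted differences had a median of -0.02 on the log2 scale, with quartiles at -0.22 and 0.17, and 8 exceeded 2-fold, 3 positive and 5 negative. The median 95% confidence half-width was 0.38, without adjustment for the number of probes. A difference of that size in a typical probe thus lay at the edge of an unadjusted p of 0.05, short of the adjusted threshold. The absence of calls thus does not show that the salt and the particle acted alike. The fit shares one spread over all 6 groups, and the median SD between exposures was 0.32 for ZnSO4 and 0.22 for SiO2 NP at the LC25. It was 0.27 for ZnO NP at the LC25, and lower at 1/10 LC50, with 0.17 for ZnSO4, 0.14 for SiO2 NP and 0.21 for ZnO NP. Fitted on the 9 exposures alone, 0 probes passed and 563 had an unadjusted p below 0.05. Reading the values as Cy5 over Cy3 gave 0 probes in limma and 353 at an unadjusted p below 0.05, and scaling the arrays to one spread gave 0 and 572. What follows on the 942 probes therefore rests on the deposited signs and scale, and on the spread shared over 6 groups. With arrays fitted singly and exposure as a random block, 31 probes passed, 10 positive and 21 negative.

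The 4 probes described next had the lowest p of each sign among those valued in at least 4 ZnSO4 and 3 SiO2 NP exposures. They were picked for their difference, and none passed the threshold (limma, adjusted p = 0.143 for each). With exposure as a random block all 4 passed, P4CB5 at an adjusted p = 0.00446 and A4F7, P9DG10 and P4BB12 each at 0.0432 (limma). With values read as Cy5 over Cy3 none passed, and the fitted differences were 0.09 for P4CB5, 0.67 for A4F7, -0.52 for P9DG10 and -0.24 for P4BB12. P4CB5 had log2 ratios of 0.55, 1.43, 2.27 and 1.25 in ZnSO4 exposures 2 to 5, with no value in exposure 1, against -0.09, 0.29, -0.40 and 0.11 in SiO2 NP exposures 1 to 4. All ZnSO4 values of this probe lay above all SiO2 NP values, with the nearest pair 0.55 and 0.29. The mean was 1.38 ± 0.71 under ZnSO4 and -0.02 ± 0.30 under SiO2 NP (SD, n = 4 each), a fitted difference of 1.38 ± 0.30 (SE), or 2.61-fold. At the LC25 of ZnO NP, P4CB5 stood at 0.97 ± 0.54 (SD, n = 4), and it stood at 0.15 ± 0.19 and 0.01 ± 0.30 (SD, n = 3 each) under ZnSO4 and SiO2 NP at 1/10 LC50. Its difference between ZnSO4 and ZnO NP at the LC25 was 0.39 ± 0.30 (SE; limma, adjusted p = 0.507).

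A4F7 had 0.98, 0.81, 0.72 and 0.24 in ZnSO4 exposures 1, 3, 4 and 5, with no value in exposure 2, against 0.17, -0.35, -0.03 and -0.14 in SiO2 NP exposures 1 to 4. The groups did not overlap, though ZnSO4 exposure 5 (0.24) came close to SiO2 NP exposure 1 (0.17). Their means were 0.69 ± 0.31 and -0.09 ± 0.22 (SD, n = 4 each), with a fitted difference of 0.79 ± 0.16 (SE), or 1.73-fold. In exposure 4 the probe held a value on 1 array of the dye-swapped pair, so any dye effect remains in that value. At the LC25 of ZnO NP, A4F7 averaged 0.01 ± 0.17 (SD, n = 3). Its difference between ZnSO4 and ZnO NP was 0.68 ± 0.17 (SE) and did not pass (limma, adjusted p = 0.0964).

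On the negative side, P9DG10 had -1.55, -1.91, -0.69, -0.69 and -0.76 in ZnSO4 exposures 1 to 5, against -0.06, 0.06, 0.12 and -0.28 in SiO2 NP exposures 1 to 4. Every ZnSO4 exposure lay below every SiO2 NP exposure, and exposures 1 and 2 were far lower than the other ZnSO4 exposures. The means were -1.12 ± 0.57 (SD, n = 5) and -0.04 ± 0.18 (SD, n = 4), and the fitted difference was -1.11 ± 0.24 (SE), or 2.17-fold. At the LC25 of ZnO NP the probe averaged -0.94 ± 0.44 (SD, n = 4), which differed from ZnSO4 by a fitted -0.21 ± 0.24 (SE; ZnSO4 minus ZnO NP; limma, adjusted p = 0.667).

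P4BB12 had -0.58, -0.58, -0.16, -0.43 and -0.41 in ZnSO4 exposures 1 to 5, against 0.64, -0.01, 0.21 and 0.45 in SiO2 NP exposures 1 to 4. The ZnSO4 values were all negative and the SiO2 NP values at or above 0 except for exposure 2, just under it. The means were -0.43 ± 0.17 (SD, n = 5) and 0.32 ± 0.29 (SD, n = 4), a fitted difference of -0.75 ± 0.15 (SE), or 1.69-fold. Here the difference was made up from both groups, whereas P4CB5 and P9DG10 were near 0 under silica. At the LC25 of ZnO NP, P4BB12 averaged 0.19 ± 0.24 (SD, n = 4), and ZnSO4 minus ZnO NP was -0.62 ± 0.15 (SE; limma, adjusted p = 0.0796). In the exact two-sided permutation test over exposures, P9DG10 and P4BB12 each gave p = 0.00794 and P4CB5 and A4F7 each p = 0.0286, before any adjustment, the smallest values that these numbers of exposures allow. These probes were chosen for low p, so the permutation values are a description. The plot of the 4 probes by exposure shows the gaps between groups beside their spread.

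**Figure D1:**
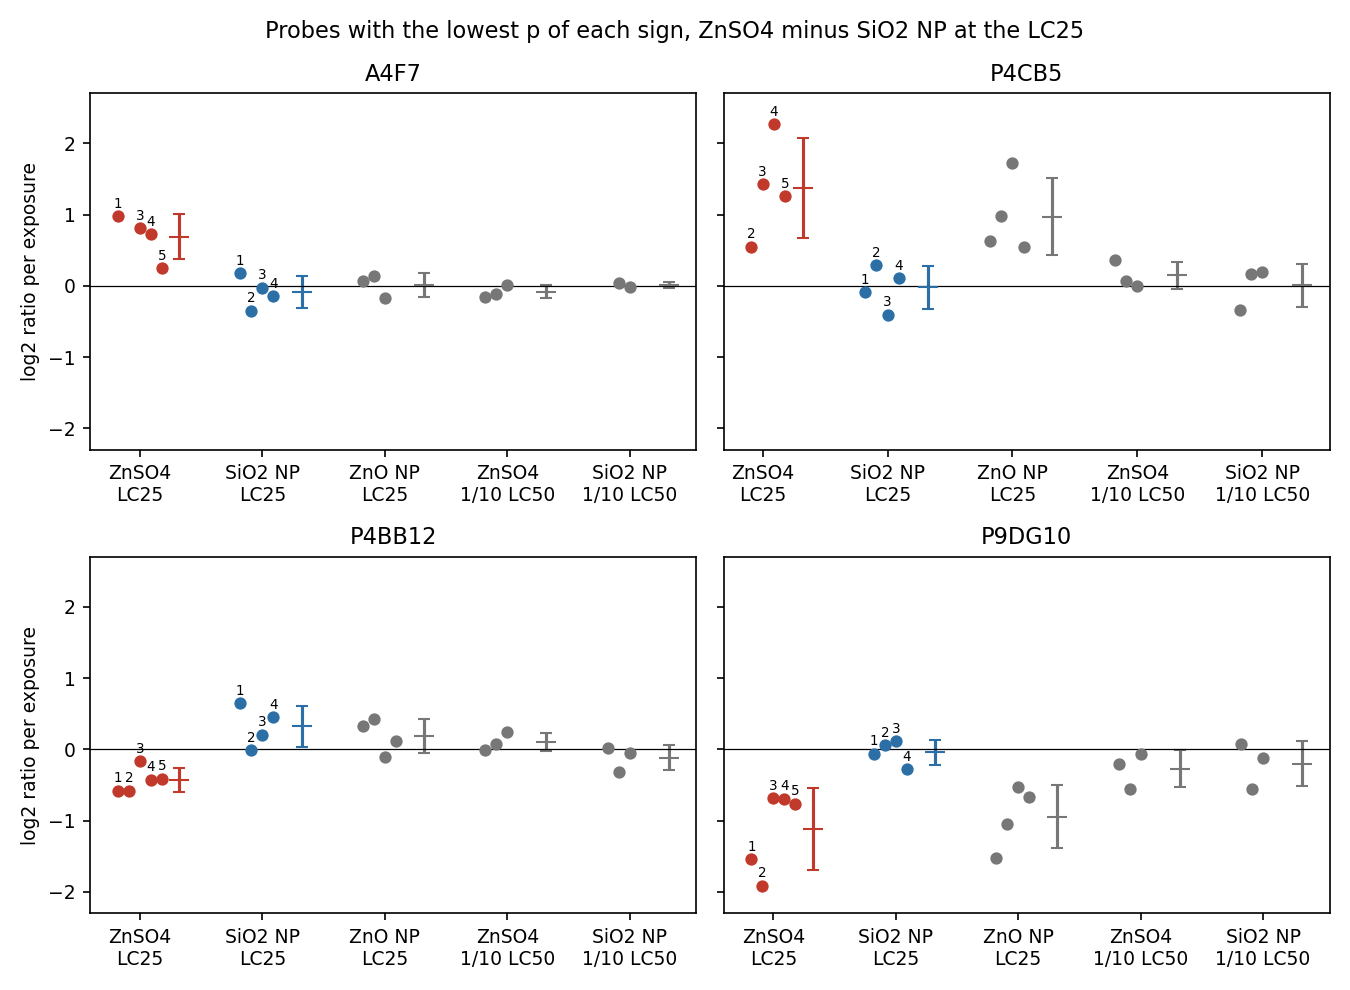
Log2 ratio between exposed and unexposed RNA (sign as deposited) in each exposure for the 4 probes with the lowest p of each sign, with ZnSO4 at the LC25 in red, SiO2 NP at the LC25 in blue and other groups of the series in grey. Small numbers are exposure numbers and bars show mean ± SD. P4CB5 averaged 1.38 under ZnSO4 and -0.02 under SiO2 NP, and P9DG10 averaged -1.12 and -0.04.

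The 5 ZnSO4 exposures did not form one profile. Across probes valued in both, the 10 pairs of ZnSO4 exposures correlated between r = -0.484 and 0.476 (median 0.143), the 6 pairs of SiO2 NP exposures between -0.0507 and 0.400 (median 0.193), and the 20 pairs between groups between -0.360 and 0.471 (median -0.00722). Probes share the array, the control RNA and its labelling, so these coefficients are a description. ZnSO4 exposure 3 stood apart. It correlated at -0.154, -0.291, 0.154 and -0.484 with ZnSO4 exposures 1, 2, 4 and 5, but at 0.0857, 0.286, 0.471 and 0.135 with SiO2 NP exposures 1 to 4. For SiO2 NP exposure 3 the dye-swapped arrays differed, with r = 0.575 to the Cy3 array and 0.120 to the Cy5 array. All 3 negative pairs within ZnSO4 involved exposure 3, and without it the 6 remaining pairs correlated between 0.128 and 0.476. The single array of exposure 3 had a value for 88.0% of probes, more than the single arrays of exposures 1, 2 and 5 (76.9% to 80.1%), and an SD over probes of 0.32, lower than theirs (0.44 to 0.48). It was hybridised with exposed RNA in Cy5, as exposures 1 and 2 were. ZnSO4 exposure 4 lay between both groups, with r = 0.414 to SiO2 NP exposure 2 and 0.288 to ZnSO4 exposure 5.

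**Figure D2:**
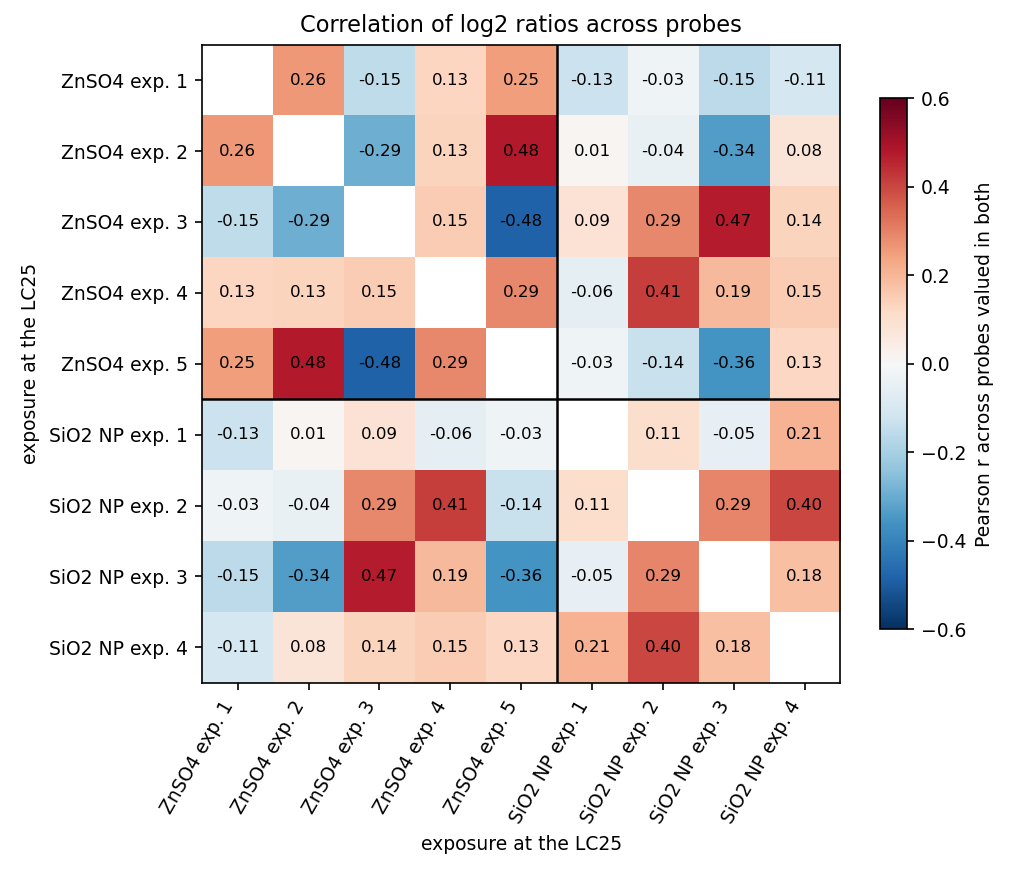
Pearson correlation across probes between the log2 ratios of the 5 ZnSO4 and 4 SiO2 NP exposures at the LC25. Red cells are positive and blue cells negative, and black lines separate the groups. ZnSO4 exposure 3 is negative with ZnSO4 exposures 1, 2 and 5 (to -0.48) and positive with all 4 SiO2 NP exposures (to 0.47).

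The comparison depended on that exposure. Without ZnSO4 exposure 3, 614 of 5495 probes (11.2%) passed in limma at an adjusted p below 0.05, 181 (3.29%) with a positive and 433 (7.88%) with a negative difference. Leaving out any other exposure of either group gave 0 probes, except for ZnSO4 exposure 5, without which A4F7 alone passed (limma, adjusted p = 0.0369). All 614 probes had the same direction with all 5 exposures, where their median size was 0.50 in place of 0.67 on the log2 scale, and 550 of them had an unadjusted p below 0.05 there. Of all 5495 tested probes, 5097 kept their direction and 942 had an unadjusted p below 0.05 there. Both fits share every other exposure, so these counts are a description. Among the 614, 49 exceeded 2-fold, 28 positive and 21 negative. The named probes passed in this setting, P4CB5 at 1.34 ± 0.35 (SE; limma, adjusted p = 0.0215), A4F7 at 0.76 ± 0.18 (adjusted p = 0.0177), P9DG10 at -1.30 ± 0.24 (adjusted p = 0.00423) and P4BB12 at -0.83 ± 0.16 (adjusted p = 0.00503). The 614 calls rest on the spread common to 6 groups. With the 2 groups fitted alone and exposure 3 left out, 0 probes passed in limma (1179 at an unadjusted p below 0.05, lowest adjusted p = 0.0733). Reading the values as Cy5 over Cy3 and leaving out exposure 3 also gave 0, and turned the difference of P4CB5 to -0.25.

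Exposure 3 itself, which the 614 calls did not use, ran against them. It was singled out in these same data, by its correlations and because probes passed once it was left out. Its shares below are partly fixed by that choice and are a description. Of the 614 probes, 62 (10.1%) had a log2 ratio in exposure 3 with the sign of the difference, against 29.2% of all probes valued there. Each of the other exposures was held out in the same way and read at the probes with an unadjusted p below 0.05 without it. Its own sign matched the difference (for SiO2 NP, the opposite sign) in 73.5%, 74.8%, 59.5% and 81.2% of these probes for ZnSO4 exposures 1, 2, 4 and 5, and in 66.6%, 73.5%, 73.3% and 67.3% for SiO2 NP exposures 1 to 4. Over all probes the shares for these 8 exposures were 53.7% to 63.8%. For ZnSO4 exposure 3 the share was 14.4% of 1556 probes. At probes chosen without it, each exposure other than ZnSO4 exposure 3 had most signs on the side of its group. The margin was small for ZnSO4 exposure 4, with 59.5% against 53.7% of all its probes. ZnSO4 exposure 3 leaned to the side of silica. Probes of an exposure share its arrays and can shift together, so all these shares are a description. Why ZnSO4 exposure 3 leaned to silica was not tested.

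**Figure D3:**
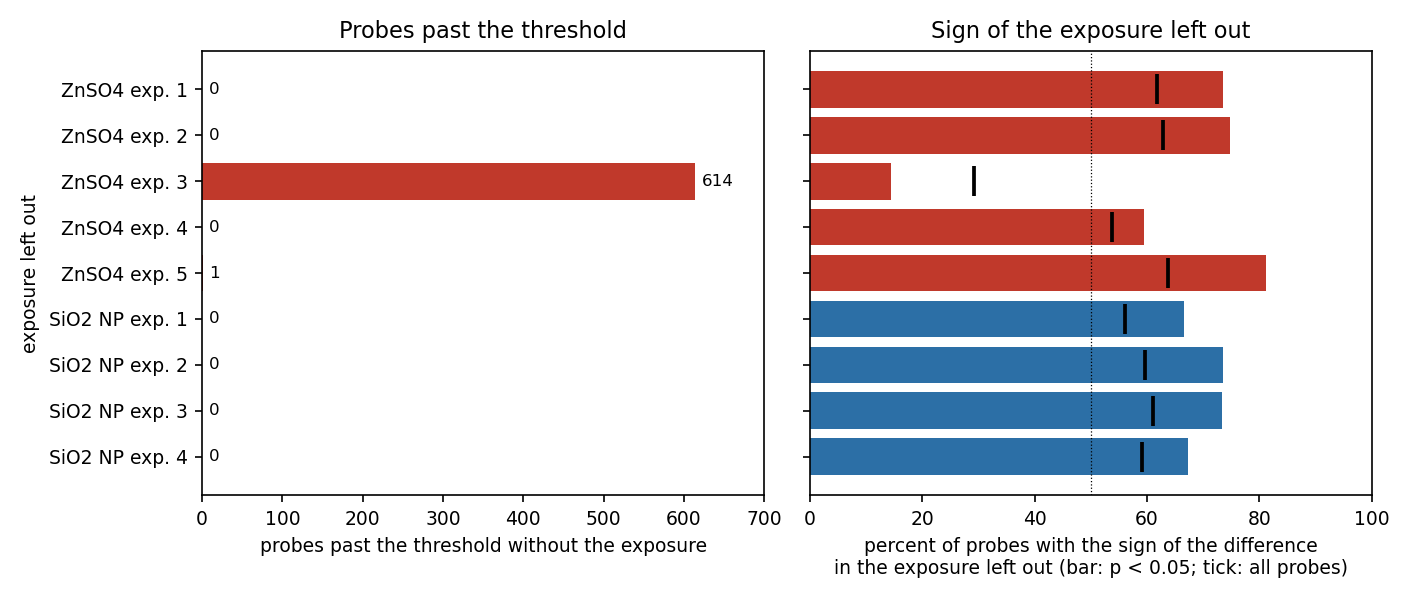
Left, number of probes past the threshold (limma, adjusted p below 0.05) for ZnSO4 minus SiO2 NP when the exposure on the vertical axis is left out. Right, percent of probes with an unadjusted p below 0.05 (bars) and of all probes (black ticks) at which the exposure left out has the sign of the difference, with ZnSO4 in red, SiO2 NP in blue and a dotted line at 50%. Without ZnSO4 exposure 3, 614 probes passed, and that exposure had the sign of the difference in 14.4% of the probes.

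The sign of the difference followed the first letter of the probe identifier. The array holds 2688 A probes from 7 plates and 4992 P probes from 13 plates, and 1256 (46.7%) and 4239 (84.9%) of them were tested. The sources used here do not say what the letters stand for. The fitted difference, ZnSO4 minus SiO2 NP, had a median of 0.21 over A probes and -0.09 over P probes, and 79.6% of A probes against 36.8% of P probes were positive. Of the 942 probes with an unadjusted p below 0.05, 217 A probes were positive and 9 negative, while 119 P probes were positive and 597 negative. Among 4042 probes valued in all 9 exposures, the ZnSO4 values lay above every SiO2 NP value at 54 (1.34%) and below at 60 (1.48%). The 4042 comprised 771 A and 3271 P probes. Of the 54, 36 were A and 18 were P probes, and the 60 were all P probes. Without ZnSO4 exposure 3 the counts were 187 (4.63%) above and 441 (10.9%) below. Among the 614 probes past the threshold without ZnSO4 exposure 3, 131 A probes were positive and 3 negative, and 50 P probes were positive and 430 negative.

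By exposure, the median of A probes minus the median of P probes was 0.30, 0.34, -0.15, 0.07 and 0.38 in ZnSO4 exposures 1 to 5, against -0.04, -0.13, -0.19 and -0.18 in SiO2 NP exposures 1 to 4. In ZnSO4, 4 of 5 exposures were positive and all 4 SiO2 NP exposures negative, with ZnSO4 exposure 3 inside the silica range. The ZnSO4 values of 0.30, 0.34 and 0.38 came from single arrays. ZnSO4 exposure 4, a dye-swapped pair, was at 0.16 on its Cy3 array (58.4% of probes valued) and 0.02 on its Cy5 array (90.5%). The value of SiO2 NP exposure 3 averaged unlike arrays, -0.37 in Cy3 and -0.0004 in Cy5. ZnSO4 exposure 3 also lay between SiO2 NP exposures 2 and 4, which were single arrays. The means were 0.19 ± 0.22 (SD, n = 5) and -0.14 ± 0.07 (SD, n = 4), a difference of 0.32. On Cy5 arrays alone the difference was 0.21, on Cy3 arrays alone 0.48, and with values read as Cy5 over Cy3 it was 0.04. The shift ran through the plates. All 7 A plates had a higher mean of plate medians under ZnSO4 than under SiO2 NP, by 0.16 to 0.26, and 11 of 13 P plates a lower one, down to -0.26. Plates P1 and P3 were the exceptions, at 0.13 and 0.07. The pattern was found in these data and was not tested. ZnO NP at the LC25 had -0.16 ± 0.10 (SD, n = 4) for the same quantity, on the side of silica. With the median of each plate subtracted from each array, 0 probes passed with all exposures and 167 without ZnSO4 exposure 3, split into 86 positive and 81 negative, in place of 181 and 433.

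**Figure D4:**
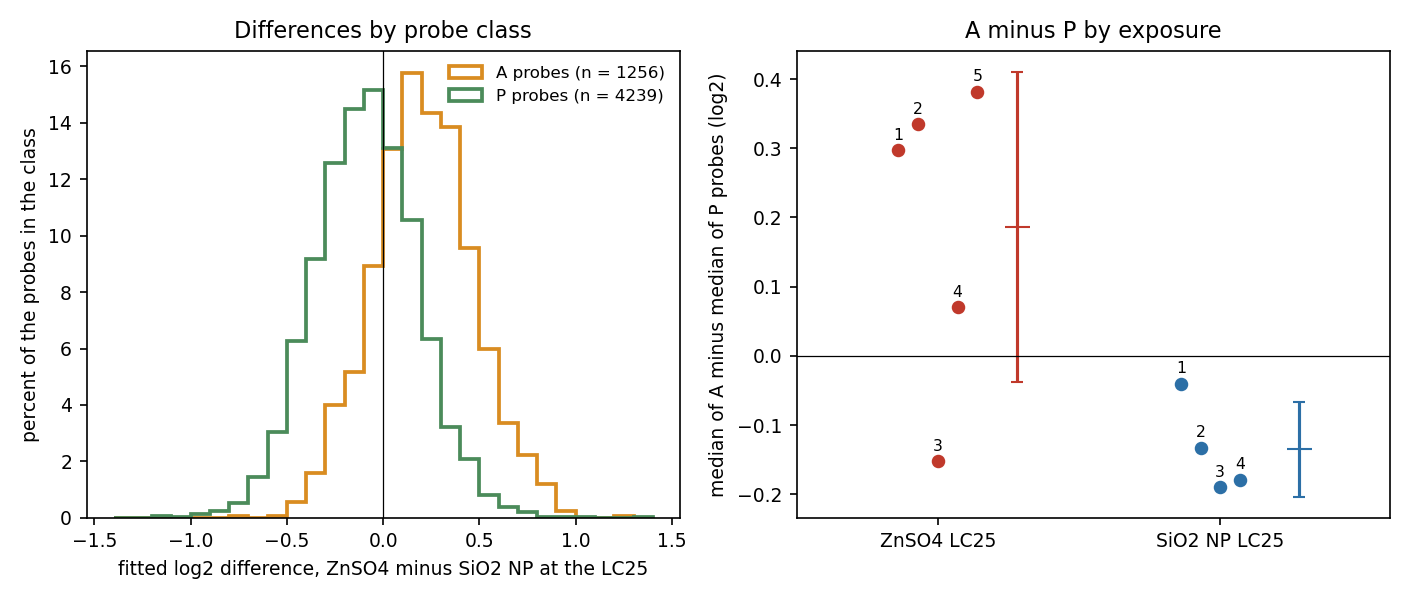
Left, distribution of the fitted log2 difference (ZnSO4 minus SiO2 NP at the LC25) over 1256 A probes and 4239 P probes, as percent of each class in steps of 0.1. Right, median of A probes minus median of P probes in each exposure, numbered, with mean ± SD. The A probes are shifted to positive and the P probes to negative differences, and ZnSO4 exposure 3 lies among the SiO2 NP exposures.

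At most probes with a low p the ratios had opposite signs under the agents. Of the 942 probes with an unadjusted p below 0.05, 881 (93.5%) had ratios of opposite sign under ZnSO4 and SiO2 NP, against 51.5% of all tested probes. Their median absolute ratio was 0.22 under ZnSO4 and 0.25 under SiO2 NP, and the ZnSO4 ratio was the larger at 419 (44.5%), against 51.0% of all tested probes. Selection on the difference itself favours opposite signs, so these shares describe the probes. At P4CB5, P9DG10 and A4F7 most of the difference lay in the ZnSO4 ratio, with fitted ratios of 1.39, -0.97 and 0.67 under ZnSO4 and 0.01, 0.14 and -0.12 under SiO2 NP.

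The same agents were set against each other at 1/10 LC50, on 3 dye-swapped exposures each. There, 0 of 5495 probes passed in limma (0%) and 74 (1.35%) had an unadjusted p below 0.05. The median 95% confidence half-width was 0.45. Fitted differences there were 0.14 ± 0.35 for P4CB5, -0.10 ± 0.21 for A4F7, -0.07 ± 0.30 for P9DG10 and 0.22 ± 0.19 for P4BB12 (SE). A4F7 and P4BB12 thus had the sign opposite to that at the LC25. The change of the ZnSO4 minus SiO2 NP difference between the levels passed at 0 probes (0%), with 441 (8.03%) at an unadjusted p below 0.05. Without ZnSO4 exposure 3, 2 probes passed, 1 of each sign. The 942 probes had a median difference of 0.47 in their own direction at the LC25 and of -0.05 at 1/10 LC50, where 323 (34.3%) kept the sign, against 41.8% of all tested probes. The A and P probes did not part in the same way at the lower level either. Their fitted differences had medians of -0.07 and 0.03, and A minus P averaged -0.09 ± 0.07 under ZnSO4 and -0.00 ± 0.03 under SiO2 NP (SD, n = 3 each).

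Dye orientation was examined because the groups held different numbers of single arrays. On the Cy5 arrays alone, 1 per exposure, ZnSO4 exposures 1 to 4 stood against SiO2 NP exposures 1 to 4, and 0 of 5493 probes passed in limma (316 at an unadjusted p below 0.05). The named differences there were 1.26 for P4CB5, 0.85 for A4F7, -0.99 for P9DG10 and -0.70 for P4BB12. On the Cy3 arrays alone, ZnSO4 exposures 4 and 5 stood against SiO2 NP exposures 1 and 3, and 324 of 3600 probes passed, 128 positive and 196 negative, a set that does not include ZnSO4 exposure 3. With 2 exposures per group, that count leans on the spread of the other groups.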

How the data were processed

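RNA of exposed and unexposed animals was labelled with Cy3 and Cy5 and hybridised to 36 2-colour arrays, per the labels. The authors deposited 1 log ratio per probe and array, read here as log2. The scanner, background correction, normalization and spot filter are not given in the sources used here, and depth does not apply, so the number of arrays limits the precision.

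Arrays of one exposure were averaged, which gave 23 exposures. The 6 groups were fitted with limma 3.58.1 in R 4.3.3 (lmFit, eBayes), with a common dye term coded 1 where an exposure had only its Cy5 array, -1 where it had only its Cy3 array and 0 where it had both. The model was refitted for each contrast. All tests were two-sided, p-values were adjusted by Benjamini-Hochberg across 5495 probes, and 2185 probes with fewer values were left out. The script was tested on simulated data. No probe passed, so the named probes are the 2 of each sign with the lowest p among those valued in at least 4 ZnSO4 and 3 SiO2 NP exposures.

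Exposure numbers 1 to 4 occur in both groups. Deviations of same-numbered exposures from their group means correlated at -0.00729, -0.0438, 0.342 and -0.144 for numbers 1 to 4. Only number 3 had a positive value, and the numbers were not taken to pair the samples. That value involves ZnSO4 exposure 3, whose r of 0.471 with SiO2 NP exposure 3 was the highest between the groups. A link between the exposures numbered 3, such as shared control RNA, was not tested. The groups, probes and tests were chosen with earlier results of these data known. Other settings are given in the closing section.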

Additional observations from a re-analysis of the deposited data

How the results depend on the processing

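The count of 0 probes for ZnSO4 minus SiO2 NP at the LC25 held in limma under 14 of 15 planned settings that keep the 9 exposures compared. It was 31 when arrays were fitted singly with exposure as a random block. Leaving out each exposure in turn gave 0 to 614 probes. Settings added after seeing the data gave 324 probes with Cy3 arrays only, 728 with the sign of ZnSO4 exposure 3 turned, and 0 with plate medians subtracted, A and P medians subtracted or Cy5 arrays only. With ZnSO4 exposure 3 left out, a second choice gave 167 (plate medians subtracted), 187 (arrays scaled to one spread), 117 (exposure number as a replicate block) and 0 (the 2 groups alone, or values read as Cy5 over Cy3). Of the 31, 324 and 728 probes, 29, 166 and 529 were among the 614, which were 11.2% of the 5495 probes tested. All these settings draw on the same arrays, so the overlaps are a description. With exposure number as a replicate block and all exposures, 0 probes passed (lowest adjusted p = 0.157, 638 at an unadjusted p below 0.05). The change of the difference between levels gave 0 to 2 probes when each exposure was left out. The difference at 1/10 LC50 gave 0 throughout, with 36 to 160 at an unadjusted p below 0.05. P4CB5 ranged from -0.25 to 2.33. Read as Cy5 over Cy3, its difference was 0.09 with all exposures (adjusted p = 0.973) and reversed to -0.25 without exposure 3. The other 3 named probes kept their sign under every setting run, with A4F7 at 0.33 to 0.94, P9DG10 at -1.30 to -0.52 and P4BB12 at -0.97 to -0.24, and adjusted p from 0.00423 to 0.859 in limma. The cause of these shifts was not tested.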
